A study of Mus musculus with 108 samples.

Results

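The 42 genes described here encode collagen chains. They are all genes whose symbol in the platform's probe annotation is Col, a number, a and a number with nothing after it, taken from probe sets that the annotation assigns to a single gene. They were 42 of 18193 genes tested. The annotation lists 82 such probe sets for them, 27 genes had 2 or more, and each gene is represented by the brightest of its probe sets, judged by mean log2 signal over all arrays. The rule for the genes uses no level, but the set was chosen with earlier results of these data known. The probe set was chosen on its mean over all arrays.

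Transcript levels were measured on Affymetrix mouse expression arrays in 6 whole organs (brain, heart, kidney, liver, lung, testis). All mice were males aged 11 to 14 weeks. The 6 inbred strains were A/J, AKR/J, C3HeB/FeJ, DBA2/J, 129S2 and C57BL/6J, and no agent or engineered allele is named in the labels. Each strain gave 3 arrays per tissue, 1 male per array by the titles, so that 18 arrays were compared in each tissue, and 22 animals were used in all. The C57BL/6J kidney, liver and testis came from animals 10, 11 and 12 and the C57BL/6J brain, heart and lung from animals 2, 3 and 4, so for this strain a difference between those groups of tissues and a difference between sets of animals cannot be told apart. Mice of 129S2 came from another supplier than the other 5 strains, so for this strain the supplier and the strain cannot be told apart. The labels' protocol also speaks of pools, and the numbers in titles and source names differ on 4 arrays, so the replicates are separate animals only as far as the titles go.

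Values are log2 hybridisation signals, and array medians were near equal within a tissue, from 4.95 to 5.01 in liver to 6.80 to 6.83 in lung, but differed between tissues. Levels were therefore compared within a tissue, and the level of a gene was not set against that of another gene. Sequence differences between strains under the probes can also change a signal, and they were not tested. Of 6 marker lists, 1 per tissue (Sftpc among those for lung), the list of the labelled tissue came out on top on 18 of 18 arrays in every tissue. Heart muscle markers averaged up to 13.36 on a lung array, C3HeB/FeJ 3 (next array 12.28). That array also averaged 9.37 over 10 skeletal muscle markers (next array 6.07) and 9.78 over 5 fat markers (next 8.56). Heart array C57BL/6J 3 averaged 7.49 over the skeletal muscle markers (next 6.58), kidney array C3HeB/FeJ 3 averaged 6.61 over the fat markers (next lowest 7.56), and testis array AKR/J 2 averaged 8.79 over 8 smooth muscle markers (next 8.22). Heart array C57BL/6J 2 was the lowest heart array over 6 heart muscle markers (12.17, next 12.61), 10 fibroblast markers (8.90, next 9.06) and also over 9 macrophage and the 8 smooth muscle markers. In whole tissue, fewer cells of a type and less RNA per cell cannot be told apart.

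Collagens are proteins of the extracellular matrix built from chains that wind round each other in a triple helix, and the genes are expressed mainly by fibroblasts and by other cells of connective tissue, vessel walls and epithelia. Fibrillar collagens (types I, II, III, V, XI, XXIV and XXVII) form the tension-bearing fibrils, with type V taking part in starting and sizing fibrils of types I and III. Type IV forms the network of basement membranes, type VI forms beaded filaments next to them, and fibril-associated collagens sit on the surface of fibrils. Others form short-chain networks, anchoring fibrils or transmembrane proteins, or, as types XV and XVIII, carry sugar chains in basement membrane zones. In kidney and lung the alpha 3, alpha 4 and alpha 5 chains of type IV make up the network of the glomerular and alveolar basement membranes.

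The sequences in front of 5 of these genes are shown because the genes carry the patterns described below: Col4a6, Col4a5 and Col4a4 belong to head-to-head pairs of type IV genes, and Col3a1 and Col1a2 encode the main fibril chains. Each is the 250 bases before the transcript start on the coding strand in RefSeq's annotation of GRCm38.p6, where 33 of the 42 genes had an entry. Capitals mark, on either strand, the CCAAT box, the GC box core GGGCGG and the TATA box letters TATAAA. The windows are chrX:141474077-141474326 (minus strand) for Col4a6, chrX:141475169-141475418 (plus strand) for Col4a5, chr1:82586850-82587099 (minus strand) for Col4a4, chr1:45311288-45311537 (plus strand) for Col3a1 and chr6:4505368-4505617 (plus strand) for Col1a2.
Col4a6: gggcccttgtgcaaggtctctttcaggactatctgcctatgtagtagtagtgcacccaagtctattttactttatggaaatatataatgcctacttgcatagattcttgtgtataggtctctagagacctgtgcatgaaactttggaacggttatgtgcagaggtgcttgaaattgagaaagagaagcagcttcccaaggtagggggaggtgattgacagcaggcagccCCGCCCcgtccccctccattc
Col4a5: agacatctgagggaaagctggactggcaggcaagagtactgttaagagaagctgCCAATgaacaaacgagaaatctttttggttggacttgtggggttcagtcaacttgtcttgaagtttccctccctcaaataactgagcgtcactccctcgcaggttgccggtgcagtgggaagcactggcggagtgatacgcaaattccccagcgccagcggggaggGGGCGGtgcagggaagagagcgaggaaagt
Col4a4: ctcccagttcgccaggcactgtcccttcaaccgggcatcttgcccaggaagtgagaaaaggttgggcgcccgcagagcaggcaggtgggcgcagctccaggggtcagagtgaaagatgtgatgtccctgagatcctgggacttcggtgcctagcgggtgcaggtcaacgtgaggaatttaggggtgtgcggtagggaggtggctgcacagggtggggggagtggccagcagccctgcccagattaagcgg
Col3a1: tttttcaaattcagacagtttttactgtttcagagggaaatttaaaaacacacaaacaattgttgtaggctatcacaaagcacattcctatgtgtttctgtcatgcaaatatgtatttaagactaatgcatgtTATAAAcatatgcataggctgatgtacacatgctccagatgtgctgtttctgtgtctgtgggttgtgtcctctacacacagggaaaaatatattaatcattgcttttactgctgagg
Col1a2: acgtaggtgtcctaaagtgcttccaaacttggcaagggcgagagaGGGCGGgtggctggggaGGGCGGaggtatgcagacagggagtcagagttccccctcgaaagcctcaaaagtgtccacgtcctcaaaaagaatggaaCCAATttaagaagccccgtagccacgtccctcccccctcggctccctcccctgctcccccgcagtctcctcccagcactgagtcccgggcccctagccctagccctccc
Among 32851 windows of this length, 33.8% held CCAAT, 32.7% held GGGCGG and 12.4% held TATAAA on either strand, and no motif lies within another. The Col4a6 window held 1 GGGCGG, the Col4a5 window 1 CCAAT and 1 GGGCGG, the Col1a2 window 1 CCAAT and 2 GGGCGG, and the Col3a1 window 1 TATAAA. The Col4a4 window held none of these letters. The starts of Col4a6 and Col4a5 lie 1343 bases apart on opposite strands of the X chromosome.

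The first comparison asked which collagen genes differ in level among the 6 strains of a tissue. The test was the moderated F of limma, adjusted by Benjamini-Hochberg over all genes, with a threshold of 0.05. With it, 24 of 42 collagen genes passed in kidney, against 46.1% of all genes tested, and 24 passed in testis, against 40.5%. In lung 21 passed, against 32.5% of all genes, in heart 14, against 21.0%, in brain 13, against 23.1%, and in liver 12, against 31.6%. Among genes with a mean log2 signal of at least 6 in the tissue, 21 of 33 collagen genes passed in lung against 40.5% of all such genes, 18 of 23 in kidney against 62.6%, 18 of 27 in testis against 52.1%, 13 of 22 in heart against 31.9%, 10 of 23 in brain against 29.6% and 8 of 13 in liver against 49.3%. The median range between the highest and the lowest strain mean was 0.40 for the collagen genes in kidney against 0.28 for all genes, 0.39 against 0.26 in lung, 0.35 against 0.28 in heart, 0.34 against 0.24 in testis, 0.23 against 0.19 in brain and 0.26 against 0.26 in liver. Collagen genes also varied more between arrays of 1 strain, with a median residual SD of 0.157 against 0.131 for all genes in heart and 0.113 against 0.0907 in brain.

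**Figure D1:**
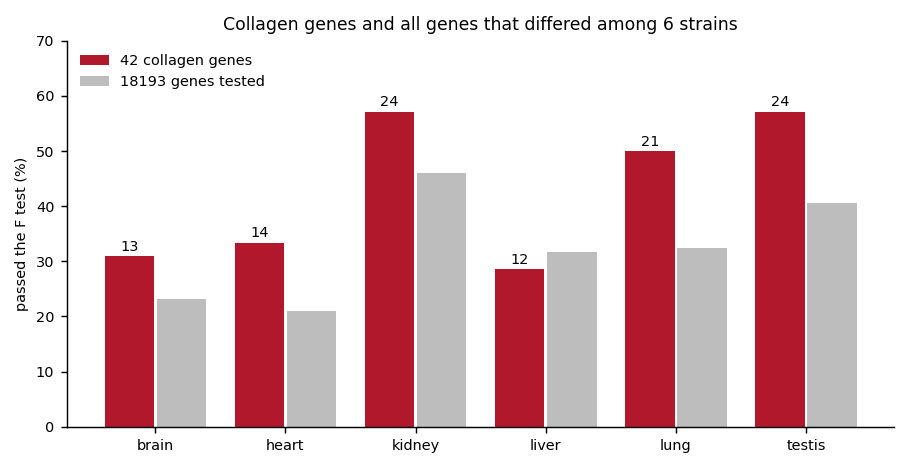
Percentage of the 42 collagen genes (dark bars, number of genes above each bar) and of the 18193 genes tested (grey bars) that passed the F test of 6 strains in each tissue. The collagen bar stands higher than the grey bar in brain, heart, kidney, lung and testis and lower in liver.

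Over the 252 pairs of a collagen gene and a tissue, those that passed had a median range of 0.64. Of them, 18 had a range of at least 1 on the log2 scale and 36 a range under 0.5. In all 6 tissues 3 genes passed, Col3a1, Col5a2 and Col6a1, while 35 passed in at least 1 tissue. The shares of all genes that passed in at least 1 tissue or in all 6 were not computed. The counts of 3 and 35 are therefore not read as a trait of collagen genes. The 7 that passed in none were Col7a1, Col9a1, Col10a1, Col11a2, Col12a1, Col25a1 and Col6a5. The p-values measure the spread between 3 animals per strain, and that number limits the precision of every value.

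**Figure D2:**
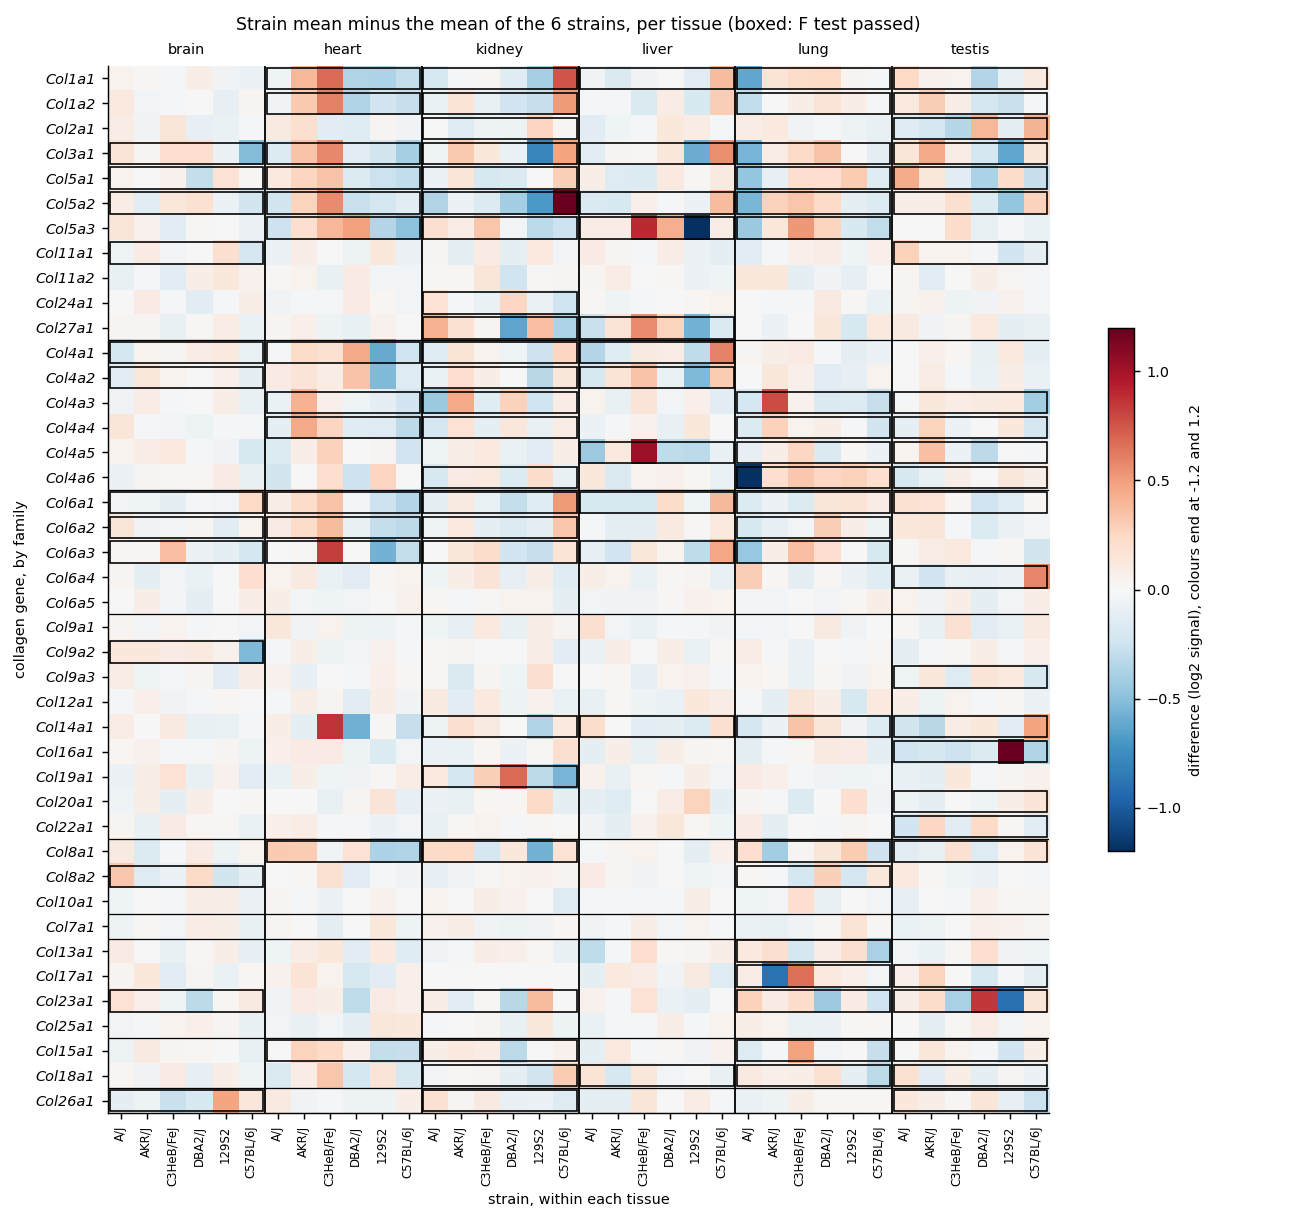
Difference of each strain mean (3 arrays) from the mean of the 6 strains of the tissue, in log2 signal, for the 42 collagen genes grouped by family (rows) and the 36 combinations of tissue and strain (columns). Boxes mark gene and tissue pairs that passed the F test. The strongest colours are Col5a2 in C57BL/6J kidney, Col5a3 in 129S2 liver, Col4a6 in A/J lung and Col16a1 in 129S2 testis.

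Of the 11 fibrillar collagen genes, 9 passed in kidney, 7 in testis, 6 in heart, 6 in lung, 5 in liver and 4 in brain. In that order these were 81.8%, 63.6%, 54.5%, 54.5%, 45.5% and 36.4%, against 46.1%, 40.5%, 21.0%, 32.5%, 31.6% and 23.1% of all genes. The widest difference in kidney was that of Col5a2 (Entrez gene 12832), which encodes the alpha 2 chain of type V collagen. It read 8.61, 8.62 and 8.72 in C57BL/6J kidney, against 6.14, 6.25 and 6.45 in 129S2 kidney and 6.40 to 7.01 (median 6.71) on the other 12 arrays. No array of another strain reached the C57BL/6J values. The strain means were 2.37 apart, a 5.17-fold difference (adjusted p = 3.71e-11), and C57BL/6J lay 2.02 ± 0.0791 (SE) above the mean of the other 5 strains (adjusted p = 2.48e-12). A second, dimmer probe set of Col5a2 gave a difference of 1.37 between the same strains. Its neighbour on chromosome 1, Col3a1, the chain of type III collagen, read 9.93, 9.96 and 10.02 in C57BL/6J kidney, against 8.47, 8.62 and 9.02 in 129S2 kidney and 9.17 to 9.88 on the other 12 arrays (range 1.27, adjusted p = 3.8e-05). On the probe sets used, both genes thus had C57BL/6J highest and 129S2 lowest in kidney, and for neither did the C57BL/6J arrays overlap those of any other strain. The second probe set of Col3a1, at a mean of 5.55 in kidney, differed by 0.25 between these strains and had C3HeB/FeJ highest. That of Col5a2 also had C57BL/6J highest, with A/J lowest. Col1a1, one of the chains of type I collagen, read 7.80, 8.04 and 8.05 in C57BL/6J kidney, against 6.58, 6.68 and 7.16 in 129S2 kidney and 6.89 to 7.41 elsewhere (range 1.15, adjusted p = 3.89e-05). Its partner Col1a2 had a range of 0.79, with a mean of 9.99 ± 0.0809 in C57BL/6J and 9.20 ± 0.181 in 129S2 (SD, n = 3 each).

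Other fibrillar genes ordered the kidneys of the strains in other ways. Col27a1, a minor fibrillar chain known from cartilage, read 9.14, 9.21 and 9.34 in A/J kidney, against 8.03, 8.24 and 8.26 in DBA2/J kidney (range 1.05, adjusted p = 2.02e-06), with 8.42 to 9.34 on the other 12 arrays. Its second probe set differed by 0.99 between the same strains. Col5a1, the alpha 1 chain of type V, was highest in C57BL/6J with a range of 0.48, and Col5a3, the alpha 3 chain, was highest in C3HeB/FeJ with a range of 0.66. Col2a1, the main cartilage fibril chain, had a range of 0.41 with 129S2 highest, and Col24a1, a minor chain of very low signal in kidney, had a range of 0.48 with DBA2/J highest.

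In heart, C3HeB/FeJ had the highest mean of Col1a1, Col1a2, Col3a1, Col5a1 and Col5a2. Col1a1 read 9.78, 9.81 and 10.02 in C3HeB/FeJ heart, against 8.45, 8.52 and 9.49 in 129S2 heart and 8.40 to 9.87 on the other 12 arrays (range 1.04, adjusted p = 0.0171). Col3a1 read 12.04, 12.11 and 12.28 in C3HeB/FeJ, against 10.80, 11.00 and 11.70 in C57BL/6J and 10.89 to 12.15 elsewhere (range 0.98, adjusted p = 0.0156). Col1a2 read 11.12, 11.17 and 11.24 in C3HeB/FeJ, against 10.13, 10.20 and 10.31 in DBA2/J and 9.83 to 11.17 elsewhere (range 0.96, adjusted p = 0.0231). In each case an array of another strain overlapped the C3HeB/FeJ values, and these calls depended on single arrays. Without C3HeB/FeJ heart 1 the adjusted p was 0.0605 for Col1a1, 0.0565 for Col3a1 and 0.0725 for Col1a2, and Col1a2 was also lost without C3HeB/FeJ heart 2 (0.0619), without C3HeB/FeJ heart 3 (0.0544) and with an intensity trend and robust prior (0.0537). Second probe sets gave differences of 1.06 for Col1a1, 2.18 for Col3a1 and 1.10 for Col1a2 between the same strains. Col5a3 read 7.26, 7.34 and 7.63 in DBA2/J heart, against 6.16, 6.37 and 6.76 in C57BL/6J heart and 6.31 to 7.38 elsewhere (range 0.98, adjusted p = 8.12e-05). The dimmer second probe set of Col5a3, with a mean of 3.93 in heart, differed by -0.12 between those strains.

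In liver, Col5a3 (Entrez gene 53867) had the widest difference of any collagen gene in any tissue. It read 8.60, 8.71 and 8.79 in C3HeB/FeJ liver, against 5.69, 6.28 and 6.61 in 129S2 liver and 7.65 to 8.33 (median 7.94) on the other 12 arrays. Both strains lay apart from all others, C3HeB/FeJ above and 129S2 below. The strain means were 2.50 apart, a 5.67-fold difference (adjusted p = 1.22e-07), and 129S2 lay -1.92 ± 0.140 (SE) from the mean of the other 5 strains. The second probe set, at a mean of 3.42 in liver, showed a difference of -0.03. Col27a1 was also highest in C3HeB/FeJ liver, at 8.60, 8.68 and 8.74, and lowest in 129S2 liver, at 7.30, 7.56 and 7.75 (range 1.14, adjusted p = 1.95e-05), and its second probe set differed by 1.46. Col3a1 read 8.37, 8.75 and 9.12 in C57BL/6J liver, against 7.35, 7.67 and 7.77 in 129S2 liver and 7.72 to 8.78 elsewhere (range 1.15, adjusted p = 0.00916). On its second probe set, at a mean of 3.70 in liver, the difference was 0.19 and C3HeB/FeJ was highest. On the probe sets used, Col1a1 and Col5a2 were highest in C57BL/6J liver too, with ranges of 0.56 and 0.57. At means of 5.20 and 5.23 both were dim there.

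In lung, the fibrillar genes that passed were lowest in A/J. Col3a1 read 12.87, 13.10 and 13.13 in DBA2/J lung, against 11.99, 12.12 and 12.27 in A/J lung and 12.53 to 13.02 on the other 12 arrays (range 0.90, adjusted p = 1.27e-05). Col5a2 read 10.50, 10.66 and 10.78 in C3HeB/FeJ lung, against 9.65, 9.76 and 9.89 in A/J lung and 10.00 to 10.87 elsewhere (range 0.88, adjusted p = 0.000262). Col5a3 read 6.85, 6.91 and 7.51 in C3HeB/FeJ lung, against 6.10, 6.11 and 6.18 in A/J lung and 6.12 to 7.05 elsewhere (range 0.96, adjusted p = 0.000731). For Col3a1 and Col5a2 no A/J array overlapped another strain, and for Col5a3 A/J arrays did. Col1a1 (range 0.86), Col5a1 (0.76) and Col1a2 (0.44) passed with A/J lowest as well, so that A/J was lowest for all 6 fibrillar genes that passed in lung. Second probe sets of Col3a1 and Col5a2 differed by 1.49 and 0.98 between the same strains, and that of Col5a3, at a mean of 4.37, by -0.07.

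In testis, Col3a1 read 9.24, 9.37 and 9.50 in AKR/J, against 8.20, 8.25 and 8.43 in 129S2 and 8.53 to 9.41 elsewhere (range 1.08, adjusted p = 0.000644). On its second probe set, at a mean of 5.12 in testis, the difference was 0.31 and C3HeB/FeJ was highest. Col5a1 read 8.80, 8.88 and 9.11 in A/J testis, against 8.10, 8.11 and 8.13 in DBA2/J testis and 7.98 to 8.81 elsewhere (range 0.82, adjusted p = 1.5e-05). The other 2 probe sets of Col5a1 did not show that difference, at -0.08 and 0.07 between the same strains, although 1 of them had a mean of 6.86 in testis. Col2a1 was 0.75 apart with C57BL/6J highest, and so was Col5a2, dim in testis at a mean of 5.68. On the probe sets used, Col1a1 was 0.59 apart with A/J highest and Col1a2 0.56 apart with AKR/J highest. Col11a1, a partner of type II collagen, was 0.50 apart with A/J highest. In brain Col3a1 read 7.29, 7.34 and 7.41 in DBA2/J, against 6.51, 6.61 and 6.76 in C57BL/6J and 7.01 to 7.50 elsewhere (range 0.72, adjusted p = 0.00124). Every C57BL/6J brain array lay below all other brain arrays for Col3a1 on the probe set used. On the second probe set of Col3a1, at a mean of 3.62 in brain, DBA2/J and C57BL/6J differed by 0.08. Col5a1 (0.46), Col5a2 (0.40) and Col11a1 (0.39) were the other fibrillar genes that passed in brain, and Col5a2 and Col11a1 were lowest in C57BL/6J as well.

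Of the 6 type IV genes, 5 passed in kidney, 4 in lung, 4 in testis, 3 in heart, 3 in liver and 2 in brain. In that order these were 83.3%, 66.7%, 66.7%, 50%, 50% and 33.3%, against 46.1%, 32.5%, 40.5%, 21.0%, 31.6% and 23.1% of all genes. Col4a6 (Entrez gene 94216), a chain of the alpha 5 and alpha 6 network, read 8.25, 8.35 and 8.44 in C3HeB/FeJ lung, against 6.05, 6.93 and 7.31 in A/J lung and 8.12 to 8.41 (median 8.24) on the other 12 arrays. All 15 arrays of the other strains lay above the A/J arrays. The range was 1.58, a 2.99-fold difference (adjusted p = 7.63e-05), A/J lay -1.51 ± 0.155 (SE) from the mean of the other 5 strains, and a second probe set differed by 1.58. Col4a5, which starts beside Col4a6 on the X chromosome, was not lowest in A/J lung: its mean was 11.09 ± 0.195 in C3HeB/FeJ, 10.67 ± 0.218 in DBA2/J and 10.74 in A/J (SD, n = 3 each for the first 2 strains; range 0.42, adjusted p = 0.042). In kidney and testis Col4a6 passed with small ranges of 0.39 and 0.33, again with A/J lowest.

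Col4a5 stood apart in liver at a very low signal. It read 4.41, 4.54 and 4.55 in C3HeB/FeJ liver, against 2.99, 3.03 and 3.08 in A/J liver and 3.02 to 3.67 on the other 12 arrays (range 1.47, adjusted p = 2.56e-08). Its second probe set differed by 0.60 between the same strains. In testis Col4a5 had a range of 0.68 with AKR/J highest, at a mean of 5.12, and its other probe set, brighter in testis at a mean of 6.05, differed by 0.12 between the same strains.

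Col4a3 and Col4a4, the neighbouring genes of the alpha 3 and alpha 4 chains, both passed in heart, kidney, lung and testis and in no other tissue. In each of these 4 tissues, on the probe set used for each gene, the same strain was highest for both genes, AKR/J, and the same strain was lowest for both, A/J in kidney and C57BL/6J in heart, lung and testis. Col4a3 read 11.35, 11.42 and 11.50 in AKR/J lung, against 10.31, 10.37 and 10.41 in C57BL/6J lung and 10.33 to 10.78 on the other 12 arrays (range 1.06, adjusted p = 6.9e-07). In kidney it read 10.37, 10.41 and 10.55 in AKR/J, against 9.44, 9.56 and 9.63 in A/J and 9.63 to 10.33 elsewhere (range 0.90, adjusted p = 1.08e-06). On the probe set used, AKR/J arrays lay above all others for Col4a3 in both tissues. Second probe sets of Col4a3 differed by 0.62 in lung and 0.32 in kidney between the same strains. Ranges of Col4a4 were smaller in lung (0.50, adjusted p = 0.0174) and kidney (0.37, adjusted p = 0.00124), and in heart the ranges were 0.65 for Col4a3 and 0.77 for Col4a4, at a mean of 5.37 for Col4a3. In testis they were 0.54 and 0.47, at a mean of 5.74 for Col4a3. The other probe set of Col4a3 was brighter in testis, at a mean of 6.86, with 129S2 highest and A/J lowest. There it had 0.17 between AKR/J and C57BL/6J. In kidney, at a mean of 9.91, it had DBA2/J highest and A/J lowest. In heart, at a mean of 5.15, it had C3HeB/FeJ highest and C57BL/6J lowest. The strain order of Col4a3 in testis, kidney and heart thus depends on the probe set. The other probe sets of Col4a4 had AKR/J highest in these 4 tissues, with a lowest strain that varied.

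**Figure D3:**
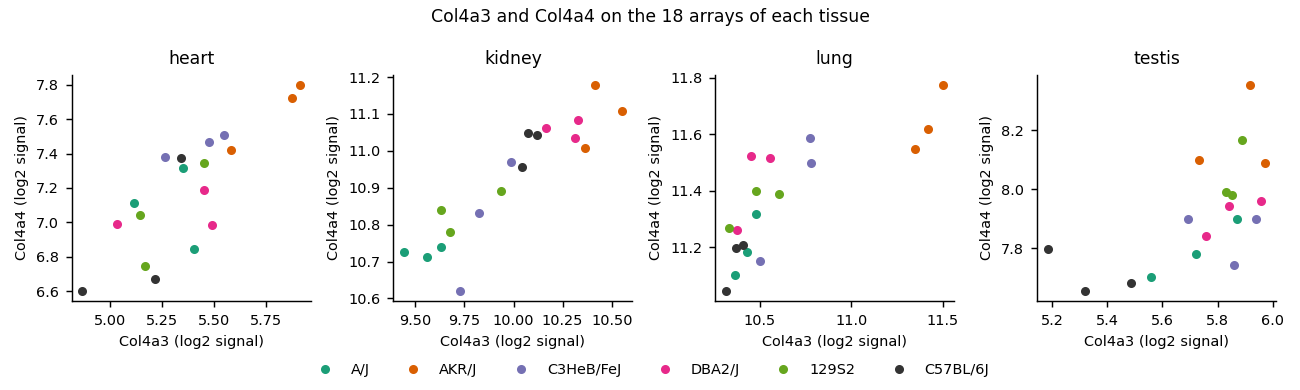
Log2 signal of Col4a3 (x axis) and Col4a4 (y axis) on the 18 arrays of heart, kidney, lung and testis, coloured by strain, with axes that do not start at 0 and differ between panels. AKR/J arrays lie towards the upper right in heart, kidney and lung, while in testis they overlap other strains along the x axis. C57BL/6J arrays lie towards the lower left in lung and testis, and A/J arrays towards the lower left in kidney.

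Col4a1 and Col4a2, the chains found in nearly all basement membranes and also a head-to-head pair, both passed in brain, kidney and liver, and Col4a1 passed in heart. Col4a1 read 11.31, 11.39 and 11.41 in DBA2/J heart, against 9.69, 10.55 and 10.68 in 129S2 heart and 10.37 to 11.28 elsewhere (range 1.06, adjusted p = 0.00441), and its second probe set differed by 0.83. In liver Col4a1 read 8.45, 8.58 and 8.67 in C57BL/6J, against 7.37, 7.72 and 7.75 in A/J and 7.62 to 8.22 elsewhere (range 0.95, adjusted p = 1.05e-05), so that C57BL/6J lay above all other strains. Col4a2 read 7.63, 8.20 and 8.20 in C3HeB/FeJ liver, against 7.10, 7.11 and 7.19 in 129S2 liver and 7.41 to 8.13 elsewhere (range 0.87, adjusted p = 0.000129). In kidney both were lowest in 129S2, with ranges of 0.50 for Col4a1 and 0.54 for Col4a2, and in brain both were lowest in A/J, with ranges of 0.33 and 0.28. The highest strain was not shared by the pair in any of these 3 tissues.

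Of the 5 type VI genes, Col6a1 passed in all 6 tissues, Col6a3 in 5, Col6a2 in 4, Col6a4 in 1 and Col6a5, which had means of 3.05 to 3.95, in none. By tissue, 60% passed in brain, heart, kidney and lung, against 23.1%, 21.0%, 46.1% and 32.5% of all genes. In liver and testis 40% passed, against 31.6% and 40.5%. Col6a3, the large chain of the beaded filament, read 9.57, 9.65 and 9.84 in C3HeB/FeJ heart, against 8.04, 8.34 and 8.51 in 129S2 heart and 8.43 to 9.03 (median 8.84) on the other 12 arrays. No array of another strain reached those of C3HeB/FeJ. The range was 1.39, a 2.63-fold difference (adjusted p = 7.03e-06), and C3HeB/FeJ lay 1.00 ± 0.0977 (SE) above the mean of the other 5 strains. C3HeB/FeJ was also highest for Col6a3 in brain, at 6.65, 7.04 and 7.17, against 6.37, 6.37 and 6.42 in C57BL/6J and 6.39 to 6.82 elsewhere (range 0.57, adjusted p = 0.00928). That call was lost without C3HeB/FeJ brain 1 (adjusted p = 0.0507) or without C3HeB/FeJ brain 2 (0.0508). In lung Col6a3 was highest in C3HeB/FeJ and lowest in A/J (range 0.82), in kidney highest in C3HeB/FeJ and lowest in 129S2 (0.48), and in liver highest in C57BL/6J and lowest in 129S2 (0.77). Col6a1 and Col6a2, neighbours on chromosome 10 that encode the shorter chains, were both highest in C3HeB/FeJ and lowest in C57BL/6J in heart (ranges 0.70 and 0.69) and both highest in C57BL/6J and lowest in DBA2/J in kidney (0.80 and 0.50). In brain and lung they also both passed, with different highest strains. Col6a4, a relative of Col6a3, read 8.41, 8.56 and 8.60 in C57BL/6J testis, against 7.35, 7.83 and 7.94 in AKR/J testis and 7.74 to 7.99 elsewhere (range 0.82, adjusted p = 0.00024), with C57BL/6J above all others. Its second probe set, at a mean of 4.35, differed by -0.02.

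Of the 9 fibril-associated genes, 5 passed in testis, 2 in kidney, 1 each in brain, liver and lung and 0 in heart. These were 55.6% in testis, against 40.5% of all genes, and 22.2% in kidney, against 46.1%. In brain, liver and lung 11.1% passed, against 23.1%, 31.6% and 32.5%, and in heart the share of all genes was 21.0%. Col16a1 (Entrez gene 107581, 1 probe set) read 11.16, 11.17 and 11.21 in 129S2 testis, against 9.58, 9.60 and 9.62 in C57BL/6J testis and 9.62 to 9.87 (median 9.73) on the other 12 arrays. The 129S2 arrays lay more than 1 log2 unit above every other testis array. The range was 1.58, a 2.99-fold difference (adjusted p = 4.39e-12), with SDs of 0.0275 in 129S2 and 0.0204 in C57BL/6J. In the other 5 tissues Col16a1 did not pass, with ranges of 0.12 to 0.27. Col14a1, whose product binds type I fibrils, read 6.82, 6.82 and 6.90 in C57BL/6J testis, against 5.67, 6.16 and 6.30 in AKR/J testis and 6.01 to 6.62 elsewhere (range 0.81, adjusted p = 0.000662), and its other probe sets differed by 0.27 and 0.22. In heart Col14a1 had a wide range of 1.45 that did not pass (adjusted p = 0.079), with SDs of 0.795 in 129S2 and 0.747 in C57BL/6J.

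Col19a1 read 6.16, 6.25 and 6.29 in DBA2/J kidney, against 4.79, 5.07 and 5.14 in C57BL/6J kidney and 4.99 to 5.97 elsewhere (range 1.23, adjusted p = 5.97e-07). A second probe set differed by 1.77 between the same strains and a dimmer one by -0.05. Col9a2, a chain of cartilage type IX collagen, read 5.94, 5.96 and 6.03 in A/J brain, against 5.30, 5.30 and 5.36 in C57BL/6J brain and 5.82 to 6.05 on the other 12 arrays (range 0.66, adjusted p = 1.04e-06). The 3 C57BL/6J arrays lay below all 15 others, C57BL/6J lay -0.63 ± 0.0454 (SE) from the mean of the other 5 strains, and the gene has 1 probe set. Col9a3, Col20a1 and Col22a1, the last known from muscle-tendon junctions, passed in testis alone, with ranges of 0.34, 0.25 and 0.47. The 2 other probe sets of Col22a1, at means of 4.07 and 4.13 in testis, differed by 0.10 and -0.11 between the same strains. Col9a1 and Col12a1 passed nowhere, and their lowest adjusted p values were 0.0677 and 0.0608.

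**Figure D4:**
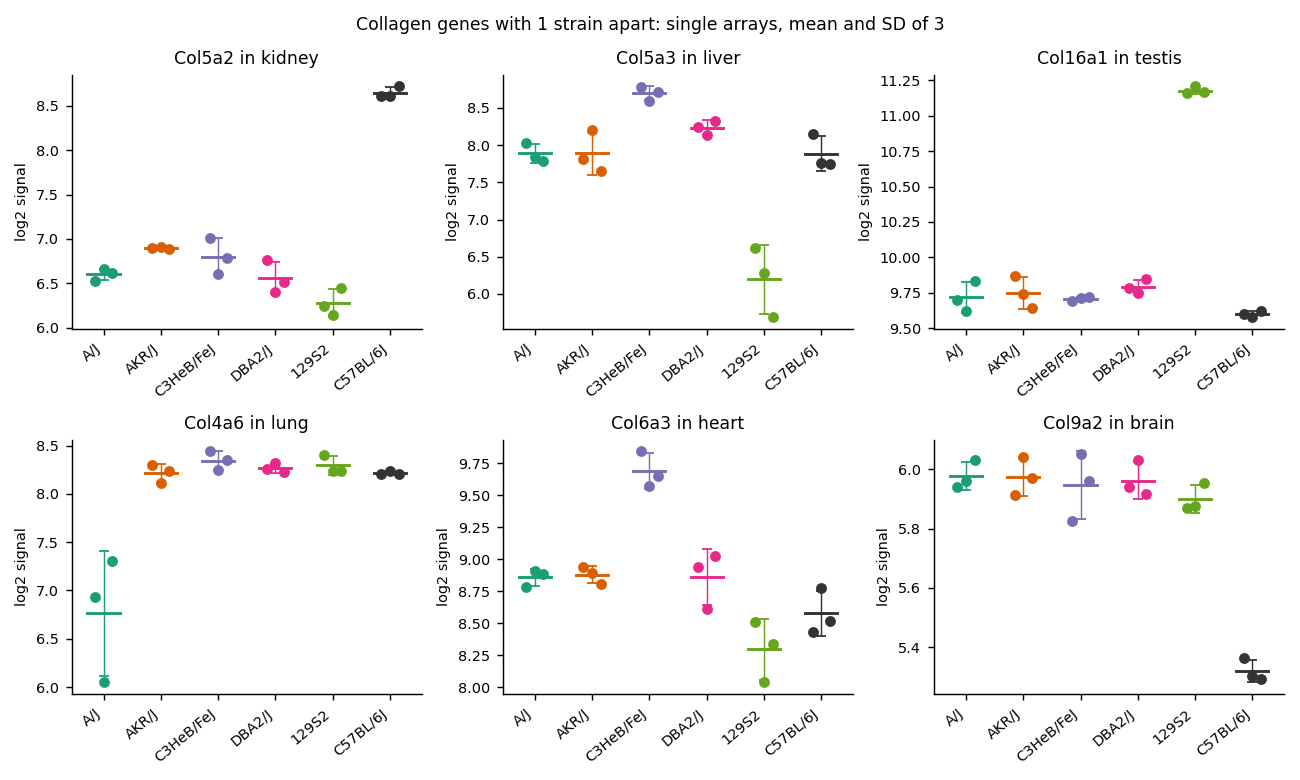
Log2 signal on single arrays (points), with the mean (line) and SD (bar) of 3, for 6 gene and tissue pairs, strains in the same order in each panel and y axes that do not start at 0. C57BL/6J lies apart from the other strains for Col5a2 in kidney and Col9a2 in brain, 129S2 for Col16a1 in testis, A/J for Col4a6 in lung and C3HeB/FeJ for Col6a3 in heart, while for Col5a3 in liver C3HeB/FeJ lies above and 129S2 below all other arrays.

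Of the 4 transmembrane genes, 3 passed in lung, 2 in testis, 1 each in brain and kidney, and 0 in heart and liver. These were 75% in lung, against 32.5% of all genes, and 50% in testis, against 40.5%. In brain and kidney 25% passed, against 23.1% and 46.1%, and in heart and liver the shares of all genes were 21.0% and 31.6%. Col23a1 read 7.77, 7.82 and 7.91 in DBA2/J testis, against 5.94, 6.12 and 6.20 in 129S2 testis and 6.43 to 7.33 elsewhere (range 1.75, adjusted p = 1.39e-09), with DBA2/J above and 129S2 below all other arrays. Its 2 other probe sets, at means of 4.07 and 3.75, differed by -0.06 and 0.07 between those strains. In brain the order was another, with 6.94, 7.07 and 7.18 in A/J, against 6.36, 6.66 and 6.73 in DBA2/J and 6.79 to 7.12 elsewhere (range 0.48, adjusted p = 0.00655). Both other probe sets of Col23a1 had the same sign there, at 0.46 and 0.26. In lung Col23a1 was also highest in A/J and lowest in DBA2/J (range 0.71), and in kidney it was lowest in DBA2/J (0.71). Col17a1, a collagen of the hemidesmosomes that fix epithelium to its basement membrane, read 6.62, 6.67 and 8.05 in C3HeB/FeJ lung, against 5.45, 5.45 and 5.81 in AKR/J lung and 6.28 to 6.74 elsewhere (range 1.54, adjusted p = 0.00759). The AKR/J arrays lay below all others, and the value of 8.05 was that of C3HeB/FeJ lung 3, the array that stood apart in skeletal muscle and fat markers, whose part in this was not tested. In testis Col17a1 had a range of 0.45 with AKR/J highest. Col13a1 passed in lung alone, with a mean of 9.98 ± 0.0281 in 129S2 and 9.39 ± 0.0580 in C57BL/6J (SD, n = 3 each), and Col25a1, known from neurons, passed nowhere.

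Among the short-chain collagens, Col8a1, a product of vessel wall and of the membrane beneath the corneal endothelium, passed in 4 tissues, most widely in kidney with a mean of 7.07 ± 0.0104 in AKR/J and 6.26 ± 0.210 in 129S2 (range 0.81, adjusted p = 6.45e-06). In heart and lung its ranges were 0.69 and 0.72. Col8a2 read 4.79, 5.09 and 5.12 in A/J brain, against 4.38, 4.49 and 4.51 in 129S2 brain and 4.40 to 4.96 elsewhere (range 0.54, adjusted p = 0.00361). It is dim in brain and overlapped between strains there, and in lung it passed with a range of 0.49 and DBA2/J highest. Col10a1, the collagen of hypertrophic cartilage, had means of 4.13 to 4.88 and passed nowhere. Nor did Col7a1, the anchoring fibril collagen, whose ranges were 0.11 to 0.25.

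The multiplexins Col15a1 and Col18a1 (the source of the fragment endostatin) each passed in 4 tissues. Col15a1 was highest in AKR/J in heart (range 0.55), kidney (0.44) and testis (0.37) and in C3HeB/FeJ in lung (0.76). On the probe set used, Col18a1 was highest in C57BL/6J kidney (range 0.52), in A/J liver (0.35) and testis (0.31) and in DBA2/J lung (0.50). Its other probe set had the same highest strain in kidney and testis, but C3HeB/FeJ in liver and A/J in lung. In liver that probe set was the brighter, at a mean of 11.52 against 10.98. The highest strain of Col18a1 in liver and lung thus depends on the probe set. Col26a1 read 5.47, 5.78 and 6.19 in 129S2 brain, against 4.92, 5.12 and 5.18 in C3HeB/FeJ brain and 5.10 to 5.55 elsewhere (range 0.74, adjusted p = 0.00501). A dimmer second probe set differed by 0.23 there. In kidney and testis its ranges were 0.34 and 0.40.

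The next comparison set each strain against the mean of the other 5 and counted collagen genes by direction, with p-values adjusted over all genes within each contrast. The 6 contrasts of a tissue share arrays. In heart 10 collagen genes were higher and 0 lower in C3HeB/FeJ, against 3.72% of all genes higher and 1.81% lower, and no other strain had more than 3 higher. The 10 were Col1a1, Col1a2, Col3a1, Col5a1, Col5a2, Col5a3, Col6a1, Col6a2, Col6a3 and Col14a1. Of these, Col14a1 had not passed the F test in heart (adjusted p = 0.079). Differences ran from 0.41 for Col5a1 and Col6a1 up to 1.04 for Col14a1. The number depended on each animal: 1 gene was called without C3HeB/FeJ heart 1, and 4 without heart 2 or without heart 3. Over all 6 strains, the F test called 9 genes in heart without C3HeB/FeJ heart 1. In heart 7 collagen genes were lower in 129S2, against 5.38% of all genes, and 7 were lower in C57BL/6J, against 4.49%. In the other direction 0 were higher in 129S2 heart, against 3.11%, and 0 in C57BL/6J heart, against 2.91%. The 129S2 count was 3 without 129S2 heart 2 and 12 without 129S2 heart 1, and the C57BL/6J count was 2 without C57BL/6J heart 2 or 4 and 4 without A/J heart 2, AKR/J heart 1 or 2, or DBA2/J heart 1 or 3. C57BL/6J heart 2 is the array that was lowest in heart muscle, fibroblast, macrophage and smooth muscle markers. With the heart arrays quantile normalized again the counts were 4 in 129S2 and 3 in C57BL/6J. Fibroblast markers, 10 genes that hold no collagen, averaged 9.91 to 10.05 per array in C3HeB/FeJ heart, against 8.90 to 9.64 in C57BL/6J heart, and 4 of the 10 passed in heart. The next highest strain was 129S2, with a mean of 9.66 (9.06 to 9.99), and the lowest mean was 9.24 in DBA2/J. Mesothelium markers averaged 6.46 to 6.86 in C3HeB/FeJ heart, against strain means of 5.29 to 5.94 elsewhere, and 3 of 6 passed. Macrophage markers averaged 8.83 in C3HeB/FeJ heart and 8.21 in A/J heart, the lowest strain, and 3 of 9 passed. Fat markers averaged 6.17 to 7.80 in C3HeB/FeJ heart, 6.08 to 7.37 in 129S2 heart and 5.91 to 6.07 in DBA2/J heart, and 0 of 5 passed. The part of these cells in the collagen differences was not tested.

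In kidney 11 collagen genes were higher in C57BL/6J, against 11.0% of all genes, while 5 were lower there, against 10.0%, and 13 were lower in 129S2, against 16.2%. The 11 took in fibrillar, type IV and type VI genes, among them Col1a2 (0.61 ± 0.0817, SE), Col6a1 (0.61 ± 0.106) and Col4a1 (0.30 ± 0.0474). The 129S2 list included Col8a1 (-0.68 ± 0.0736), Col3a1 (-0.94 ± 0.117) and Col4a2 (-0.40 ± 0.0563), and 6 collagen genes were higher in 129S2, against 14.5%. Fibroblast markers averaged 7.37 to 7.46 in C57BL/6J kidney and 7.33 to 7.39 in AKR/J kidney, the next strain, with 7 of 10 passing, and macrophage markers averaged 7.64 in C57BL/6J and 6.89 in 129S2. Their part was not tested. In liver 8 collagen genes were higher in C57BL/6J, against 9.94% of all genes, and 0 lower, against 9.24%, while 7 were lower in 129S2, against 6.69%, and 1 was higher, against 5.75%. The C57BL/6J list held Col1a1, Col1a2, Col3a1, Col5a2, Col4a1, Col4a2, Col6a1 and Col6a3, and 5 were called without C57BL/6J liver 12. Of the genes in this list, Col1a2 had not passed the F test in liver. Macrophage markers averaged 8.72 to 9.14 per array in C57BL/6J liver and 7.76 to 8.02 in C3HeB/FeJ liver, the lowest strain, and fibroblast markers 6.21 to 6.49 in C57BL/6J and 6.14 to 6.17 in AKR/J. Their part was not tested.

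In lung 9 collagen genes were lower in A/J, against 5.68% of all genes, and 1 was higher, against 5.79%. In C3HeB/FeJ lung 8 were higher, against 6.12%, and 0 were lower, against 6.71%. The A/J list held Col1a1 (-0.75 ± 0.0865, SE), Col3a1 (-0.67 ± 0.0673), Col5a2 (-0.66 ± 0.0972), Col6a3 (-0.54 ± 0.0663) and Col4a6 among others. Smooth muscle markers averaged 9.58 to 9.65 on the A/J lung arrays, against 10.07 to 10.50 on the C3HeB/FeJ arrays, fibroblast markers 10.39 to 10.56 in A/J and 10.38 to 10.53 in C57BL/6J, and endothelial markers were highest in A/J. Fibroblast markers averaged 10.81 to 11.14 in C3HeB/FeJ lung, and 10 of 10 passed in lung. Fat markers averaged 8.75 in C3HeB/FeJ lung (7.91 to 9.78 per array) and 6.94 in A/J lung, against 7.29 to 7.70 in the other strains, and 4 of 5 passed. Their part was not tested. The C3HeB/FeJ count was 5 without lung array C3HeB/FeJ 3 and 4 without lung array C3HeB/FeJ 1. In testis 8 collagen genes were higher in AKR/J, against 13.1% of all genes, and 4 were lower, against 11.1%. In C57BL/6J testis 8 were lower, against 11.9%, and 5 were higher, against 9.30%. The AKR/J count was 4 without AKR/J testis 2, and 4 when all probe sets of a gene were averaged, and the C57BL/6J count was 3 without C57BL/6J testis 12. Fibroblast markers averaged 7.16 to 7.34 in AKR/J testis and 6.86 to 6.93 in C57BL/6J testis. Macrophage markers averaged 7.38 to 7.54 in AKR/J testis, against at most 7.22 on any other testis array, and 7 of 9 passed. The 9 cartilage markers, none of them a collagen, averaged 6.32 to 6.39 in AKR/J testis, against at most 6.15 elsewhere, and 4 passed. The part of these cells was not tested. In brain 3 collagen genes were higher in A/J, against 3.89%, and 2 were lower, against 4.23%. In C57BL/6J brain 4 were lower, against 7.48%, and 1 was higher, against 6.04%. The A/J count was 0 without A/J brain 2 or 3, and the C57BL/6J count was 2 without C57BL/6J brain 2 and 7 with all probe sets averaged. The counts of 3 and 4 were 7.14% and 9.52% of the collagen genes. Fibroblast markers averaged 7.08 in A/J brain and 6.96 in C57BL/6J brain, the highest and the lowest strain, and 3 of 10 passed. Smooth muscle markers averaged 6.36 in A/J brain and 6.12 in AKR/J brain, the lowest strain, and 4 of 8 passed. Markers of meninges and choroid plexus averaged 8.20 in C57BL/6J, 8.19 in A/J and 8.02 in C3HeB/FeJ brain, the lowest strain, and 6 of 7 passed. Their part was not tested.

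**Figure D5:**
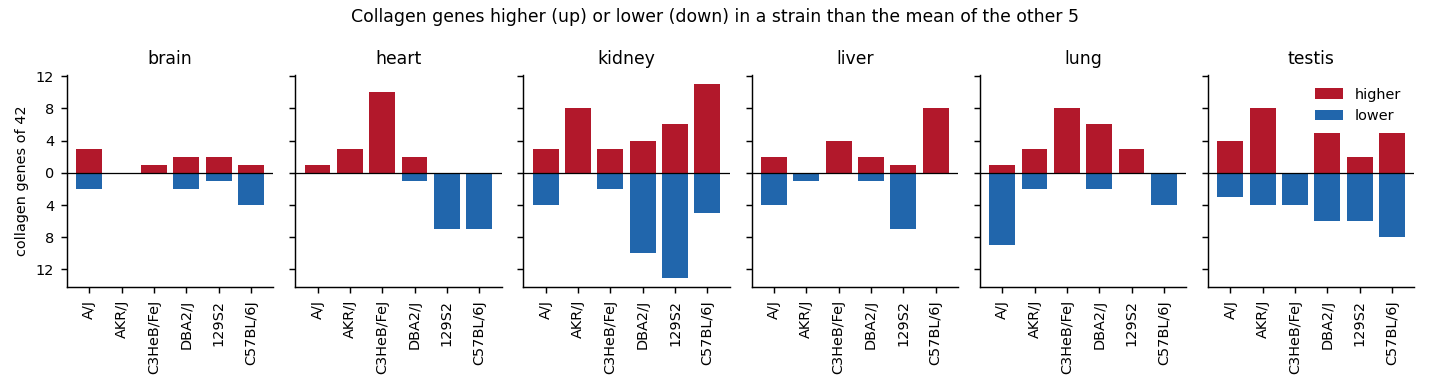
Number of the 42 collagen genes that were higher (upward bars) or lower (downward bars) in each strain than the mean of the other 5 strains, per tissue. The tallest upward bars are C57BL/6J in kidney (11) and C3HeB/FeJ in heart (10), and the tallest downward bar is 129S2 in kidney (13).

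A fit of all arrays with the animal as a random block asked which collagen genes differed among strains on average over the 6 tissues. It called 25 of 42, against 62.2% of all genes. The 8 with the smallest adjusted p were Col5a3 (2.01e-18), Col6a3 (1.99e-15), Col5a2 (5.61e-15), Col4a3 (1.47e-13), Col4a5 (1.4e-11), Col3a1 (6.1e-10), Col4a6 (3.38e-09) and Col16a1 (4.88e-08). Averaged over tissues, Col5a3 stood at 6.78 ± 0.0453 in C3HeB/FeJ and 5.99 ± 0.0449 in 129S2 (SE), and Col6a3 at 8.47 ± 0.0338 in C3HeB/FeJ and 7.92 ± 0.0335 in 129S2. C3HeB/FeJ was the highest strain for Col6a3 in 5 of 6 tissues and for Col5a3 in 4. Both counts include testis, where neither gene passed the F test. Col3a1 averaged 9.88 ± 0.0557 in AKR/J, 9.87 in C3HeB/FeJ and 9.29 ± 0.0552 in 129S2, and the first 2 of these differ by less than their errors. On the probe set used, AKR/J was the highest strain for Col4a3 in 5 of 6 tissues, among them brain, where the gene did not pass. The average of Col4a3 was 7.15 in AKR/J and 6.68 in C57BL/6J. Col5a2 averaged 7.51 in C57BL/6J and 6.93 in 129S2, Col4a5 averaged 7.31 in C3HeB/FeJ and 6.88 in DBA2/J, and Col4a6 averaged 6.40 in 129S2 and 5.94 in A/J. The average of Col16a1 rests on testis: without it the adjusted p was 0.864.

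The same fit tested whether strain differences of a gene depend on the tissue, and 36 of 42 collagen genes passed, against 72.4% of all genes. The 6 that did not were Col6a5, Col7a1, Col9a1, Col10a1, Col11a2 and Col25a1. The smallest adjusted p values were those of Col5a2 (2.57e-20), Col16a1 (3.66e-18), Col23a1 (6.92e-18) and Col27a1 (1.27e-17). On the probe set used, Col5a2 was highest in C57BL/6J in kidney, liver and testis, lowest in C57BL/6J in brain, and highest in C3HeB/FeJ in heart and lung. The C57BL/6J kidney, liver and testis came from other animals than its brain, so tissue and animals cannot be told apart for this pattern. The dimmer probe set of Col5a2, at means of 3.67 in liver and 4.25 in testis, differed by 0.08 in each between the same strains. It had DBA2/J highest in liver and AKR/J highest in testis. Without C57BL/6J, a choice made after seeing the data, 32 collagen genes passed the interaction test, against 64.7% of all genes, and the adjusted p of Col5a2 was 1.21e-07. The average over tissues then called 23, against 54.0% of all genes. Col27a1 was highest in A/J and lowest in DBA2/J in kidney, highest in C3HeB/FeJ and lowest in 129S2 in liver, and did not pass elsewhere.

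Genes that act on collagen were described from lists of general knowledge, and each count is to be read against the share of all genes that passed in the tissue, which was 21.0% in heart, 31.6% in liver, 46.1% in kidney, 23.1% in brain, 40.5% in testis and 32.5% in lung. Of 20 chaperones and modifying enzymes, 14 passed in kidney, 13 in liver, 8 in lung, 8 in testis, 5 in heart and 4 in brain. These are 70% in kidney and 65% in liver, above the shares of all genes, and 20% in brain and 40% in testis, near them. Serpinh1, the collagen chaperone, averaged 9.98 in C57BL/6J kidney and 9.19 in 129S2 kidney (adjusted p = 1.15e-05). On the probe sets used, these strains were highest and lowest for Col3a1 and Col5a2 there. In liver Serpinh1 averaged 7.30 in C57BL/6J and 6.25 in A/J. P4ha1, a prolyl hydroxylase subunit, averaged 8.70 in DBA2/J heart and 7.54 in 129S2 heart. Of 10 enzymes and helpers of processing and crosslinking, 7 passed in lung, 5 each in kidney and liver, 4 each in brain and heart and 3 in testis. The share was 70% in lung, and in testis it was 30%, not far from that of all genes. Loxl1, a crosslinking oxidase, averaged 8.30 in C57BL/6J kidney and 7.29 in 129S2 kidney (adjusted p = 7.96e-08). Lox averaged 10.44 in 129S2 lung and 9.19 in A/J lung and Loxl1 11.02 in DBA2/J lung and 10.26 in A/J lung, so both were lowest in the strain that was lowest for the fibrillar genes in lung. Pcolce, which enhances procollagen cleavage, averaged 10.41 in C3HeB/FeJ heart and 9.56 in 129S2 heart.

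Of 13 proteoglycans and glycoproteins of fibrils, 12 passed in kidney, 10 in lung, 9 in testis, 7 in liver and 4 each in brain and heart. That is 92.3% in kidney and 76.9% in lung, above the share of all genes in each, and 30.8% in brain, near that of all genes there. Lum and Dcn, which are also in the fibroblast list, coat fibrils. Lum averaged 11.63 in C3HeB/FeJ heart and 10.60 in C57BL/6J heart, and Dcn averaged 10.64 in AKR/J testis and 9.43 in 129S2 testis. On the probe set used for Col3a1, its highest and lowest strains were the same as these in both tissues. In kidney Lum departed from Col3a1, averaging 8.40 in AKR/J, the highest strain, and 6.41 in DBA2/J, the lowest (adjusted p = 8.65e-10). Eln, the elastin gene, averaged 10.65 in DBA2/J lung and 9.10 in A/J lung (adjusted p = 2.43e-05). Of 14 basement membrane partners, 9 passed in kidney, 9 in lung, 7 in testis, 6 in heart, 5 in liver and 4 in brain. The share in liver was 35.7%, near that of all genes, and in lung it was 64.3%. Among them the laminin gene Lama3 averaged 9.49 in DBA2/J kidney and 7.64 in C3HeB/FeJ kidney.

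Of 14 genes of collagen degradation, 10 passed in lung, 8 each in heart and kidney, 4 each in brain and liver and 3 in testis. The share was 71.4% in lung and 57.1% in heart, above that of all genes. It was 28.6% in liver, near that of all genes, and 21.4% in testis, below it. Mmp2, a gelatinase gene, averaged 9.94 in C3HeB/FeJ heart and 8.96 in C57BL/6J heart, and in lung 10.84 in DBA2/J and 10.01 in A/J, in both tissues with the same highest and lowest strain as Col3a1. The inhibitor gene Timp4 had C3HeB/FeJ lowest in heart, at 8.20 in DBA2/J and 5.96 in C3HeB/FeJ (adjusted p = 0.00278). Of 8 collagen receptors, 4 passed in heart, 3 each in liver, lung and testis, 2 in kidney and 1 in brain. The share of 25% in kidney is below that of all genes and that of 50% in heart is above it, while that of 12.5% in brain rests on 1 gene. Itga2, an integrin subunit that binds type I collagen, averaged 7.79 in 129S2 testis and 5.32 in AKR/J testis (adjusted p = 2.96e-14), and Ddr2, a receptor for fibrillar collagen, 10.01 in 129S2 lung and 9.08 in A/J lung. Of 15 genes of the TGF beta pathway, which promotes collagen expression, 13 passed in lung, 11 in testis, 10 in kidney, 7 in liver, 4 in brain and 1 in heart, Tgfbr1. That is 86.7% in lung and 73.3% in testis, above the share of all genes, and 6.67% in heart, below it. Tgfbi averaged 8.65 in AKR/J testis and 7.17 in A/J testis and 7.67 in C57BL/6J kidney and 6.69 in 129S2 kidney.

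Where a passing collagen gene had further probe sets, these mostly gave the same direction. Of 110 comparisons of another probe set between the highest and lowest strain of the main one, 97 had the same sign. Among those with a mean of at least 6, 57 of 58 did, and the exception was the Col5a1 probe set in testis given above, at -0.08.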

How the data were processed

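The authors deposited 1 table of log2 signals for 45101 probe sets, made with RMA, an array normalization and summary method, per the submitters' processing notes, which give no version. Control probe sets (64), those with several genes (932) and those with no gene (9160) were left out, and each gene took its brightest probe set, which gave 18193 genes with no filter on dim ones. The collagen genes and the gene lists were chosen with earlier results of these data known.

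Within each tissue, limma 3.58.1 (R 4.3.3) fitted 1 mean per strain on 18 arrays (lmFit and eBayes). The moderated F test over the 6 strains and the contrasts of each strain with the mean of the other 5 were adjusted by Benjamini-Hochberg over all genes, threshold 0.05. A fit over all arrays, with the animal as a random block, gave the tissue average and the interaction. The code was tested on simulated data. Named with values on each array were, per tissue, the 6 passing collagen genes with the widest range, and for the average and the interaction the 8 with the smallest adjusted p. Arrays give no read depth, so the number of arrays limits precision. Python 3.11.15, pandas 2.3.3 and matplotlib 3.10.9 were used. No 2 replicates shared over 0.166% of their values. Alternatives were centring each array on its median, quantile normalization within a tissue, all probe sets averaged, an intensity trend with a robust prior, a filter on dim genes, the replicate number as a block, and leaving out each array or tissue. Leaving out the strain C57BL/6J in the fit over all arrays, with the within-animal correlation of the full fit, was added after seeing the data.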

Additional observations from a re-analysis of the deposited data

Results flagged for a closer look

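The strain differences of 8 collagen genes depended on the tissue most clearly, by the test of the interaction itself in the fit over all arrays (limma, Benjamini-Hochberg over all genes). The adjusted p was 2.57e-20 for Col5a2, 3.66e-18 for Col16a1, 6.92e-18 for Col23a1, 1.27e-17 for Col27a1, 3.88e-16 for Col5a3, 1.03e-14 for Col5a1, 9e-14 for Col19a1 and 3.74e-13 for Col6a3. For Col16a1 the range among strains was 1.58 in testis, and with testis left out the interaction's adjusted p was 0.0888. Col23a1 had DBA2/J highest in testis and lowest in brain, kidney and lung. On the probe set used, Col5a1 was highest in A/J in testis, in 129S2 in brain and lung, in C3HeB/FeJ in heart and in C57BL/6J in kidney. The 2 other probe sets of Col5a1 had DBA2/J highest in lung. In testis they differed by -0.08 and 0.07 between A/J and DBA2/J, so this order depends on the probe set. Col19a1 passed in kidney and Col27a1 in kidney and liver, and in no other tissue. For C57BL/6J, whose kidney, liver and testis came from other animals than its brain, heart and lung, tissue and animals cannot be told apart. With C57BL/6J left out, chosen after seeing the data, the adjusted p of Col5a2 was 1.21e-07.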

How the results depend on the processing

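Of 2070 alternative values, 2030 kept their side of the threshold (counts within 1.5 times), 38 were weaker, 2 stronger and 0 reversed. A reversal could be seen only where a highest and a lowest strain were compared. Counts and interaction tests have no such difference, so they could not be labelled reversed. Of 52 named gene results, 46 kept their call throughout. Averaging all probe sets gave 4 genes higher in AKR/J testis and 7 lower in C57BL/6J brain. Quantile normalization within heart gave 4 lower in 129S2 and 3 lower in C57BL/6J. Leaving out 1 array at a time, the F test called 9 to 17 genes in heart. Genes higher numbered 0 to 3 in A/J brain, 4 to 10 in AKR/J testis, 1 to 12 in C3HeB/FeJ heart, 4 to 10 in C3HeB/FeJ lung and 5 to 9 in C57BL/6J liver. Genes lower numbered 3 to 12 in 129S2 heart, 2 to 6 in C57BL/6J brain, 2 to 9 in C57BL/6J heart and 3 to 9 in C57BL/6J testis. Calls over all 6 strain contrasts numbered 11 to 20 in brain and 19 to 37 in heart. The causes were not tested. With the replicate number as a block the F test called 24 genes each in testis and kidney, 21 in lung, 14 in heart, 13 in brain and 12 in liver, the same counts as without it. Deviations of same-numbered arrays correlated at a median of -0.0104 to 0.0719 per tissue, so the numbers were not taken to pair the samples. Without the animal as a block the average called 26 genes and the interaction 36, and without C57BL/6J, chosen after seeing the data, 23 and 32. A filter on a mean log2 signal of 6 leaves no value for dim genes such as Col9a2, Col26a1 and Col8a2 in brain, Col19a1 in kidney and Col4a5 in liver. Signals near background cannot show a fold change in full, and 3 arrays per strain limit what can be called.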
